A study of Mus musculus with 8 samples.

Results

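The comparison described here is that of PD1+Tim3- CD8 T cells labelled dKO, for loss of both Nr4a1 and Nr4a2, with WT cells of the same gate. Its members were every named gene of the deposited count table, 24976 genes, in 4 of the 8 libraries of the series, with 2 libraries per genotype. Of these genes, 13073 passed a filter on low counts and were tested. Bulk RNA sequencing was done on CD8 T cells taken from B16-OVA tumours. These were made by a murine melanoma line carrying ovalbumin and grown under the skin of Rag2-/- mice, which lack T and B cells of their own. Donor CD8 T cells were WT, or came from Cd8Cre Nr4a1 flox/flox Nr4a2 flox/flox OT-I Tg/+ mice, where OT-I is a T cell receptor (TCR) transgene that recognises ovalbumin. All groups shared the tumour, the Rag2-/- host and the schedule, in which the tumour was implanted 10 days before T cell transfer and CD3e+CD8+PD1+Tim3- cells were taken 10 days after it. The other 4 libraries hold the PD1+Tim3+ cells of the same genotypes. Whether the WT donors also carried OT-I is not stated, so receptor specificity and the deleted genes cannot be told apart where they did not.

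NR4A proteins are orphan nuclear receptors that TCR signals switch on within the early gene response, and in CD8 T cells of tumours they restrain effector programmes and favour exhaustion. PD1, the product of Pdcd1, and Tim3, the product of Havcr2, are inhibitory receptors of exhausted T cells. Cells with PD1 and without Tim3 hold the less differentiated, TCF1-expressing pool that renews the exhausted population, and Tim3+ cells are its more differentiated descendants. TCF1 is encoded by Tcf7.

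Total counts were 7828156 and 4801738 in the WT libraries and 5519221 and 1944999 in the libraries labelled dKO, within 1944999 to 13418762 over the series. Levels are given as CPM, counts relative to the TMM-scaled library size, on which 1 read is worth 0.142 CPM in the deepest and 0.525 CPM in the shallowest PD1+Tim3- library. The 6 CD8 T cell markers in the table summed to 2975 and 3127 CPM in WT and to 3333 and 3458 CPM in dKO. Marker sums of melanoma cells (18 to 22.3 CPM), macrophages (8.92 to 23), neutrophils (13.9 to 20.2), B cells (3.15 to 5.25) and erythroid cells (3.52 to 7.82) were low in all 4, with Sox10, C1qc, S100a8, S100a9, Ms4a1 and Alas2 at 0. Most of the melanoma sum was Tyr (14.5 to 17.1 CPM), and most of the neutrophil sum was Cxcr2 (11 to 15.4). Cd68 (5.77 to 10.9 CPM) and Cd14 (3.15 to 10.8) made up most of the macrophage sum. Dendritic cell markers summed to 33.2 to 41.5 CPM, mostly Itgax (22.2 to 28.8), with Clec9a at 0. Fibroblast and endothelial markers summed to 23.6 to 43.9 CPM, mostly Pecam1 (21.5 to 36.5), with Col1a2 at 0. Markers listed for NK cells summed to 66.8 and 74.6 CPM in WT and to 41.8 and 46.7 CPM in dKO. Eomes, which CD8 T cells also express, made up most of that sum, and Ncr1 was at 0. Genes listed for CD4 and regulatory T cells summed to 534 to 597 CPM, and Cd4 itself stood between 0 and 0.525 CPM.

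Neither targeted gene was called lower in the libraries labelled dKO. Nr4a1 stood at 979 and 824 CPM in WT and at 1331 and 1489 CPM in dKO, with a log2 fold change of 0.64 ± 0.13 (SE, n = 2 libraries per genotype; adjusted p = 0.126 by the edgeR quasi-likelihood test with Benjamini-Hochberg adjustment). Nr4a2 was at 990 and 958 CPM in WT and at 937 and 929 CPM in dKO, slightly below both WT libraries, with a log2 fold change of -0.06 ± 0.11 and an adjusted p of 0.914. Nr4a3, the family member that was not floxed, was at 333 and 348 CPM in WT and at 394 and 377 CPM in dKO. Nr4a1 counts thus go against the genotype label. Counts were deposited per whole gene, the labels do not name the floxed exons, and transcripts that keep the remaining exons would still be counted. Every direction below is therefore that of the libraries labelled dKO.

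The sort was visible in both genotypes. Havcr2 had 3.55 and 2.28 CPM in WT and 3.62 and 3.15 CPM in dKO PD1+Tim3- cells, against 41.8 to 58.2 CPM in the 4 PD1+Tim3+ libraries. Pdcd1 was at 67.3 and 45.0 CPM in WT and 50.1 and 63.0 CPM in dKO, with a log2 fold change of -0.04 ± 0.18. Tcf7 was at 342 and 372 CPM in WT and 329 and 308 CPM in dKO (log2 fold change -0.16 ± 0.11, adjusted p = 0.745 by edgeR). Tox, a driver of the exhausted state, was at 35.4 and 41.3 CPM in WT and 30.8 and 36.7 CPM in dKO, so that the genotypes overlapped. Cd8a and Cd3e had log2 fold changes of 0.21 and 0.05.

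Few genes separated the genotypes in PD1+Tim3- cells. Of the 13073 genes tested, 6 had an adjusted p under 0.05 in edgeR, 0.0459% of them. The chemokine gene Cxcl10 and the transcriptional regulator Id3 were higher in the libraries labelled dKO (2 genes, 0.0153%), and Gdpd3, Serpine2, Setbp1 and Ubash3b were lower (4 genes, 0.0306%). At an unadjusted p under 0.05 there were 1081 genes, 8.27% of those tested, with 523 higher (4%) and 558 lower (4.27%). Both dKO libraries lay above both WT libraries in 20.3% of genes and below both in 21%. The median log2 fold change over all genes was -0.01. Among 8351 genes with a mean of at least 10 CPM, the genotype means differed by over 2-fold in 10, while the WT libraries differed from each other by that much in 49 and the dKO libraries in 14. Means of 2 libraries vary less than single libraries, so these counts cannot be compared directly.

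**Figure D1:**
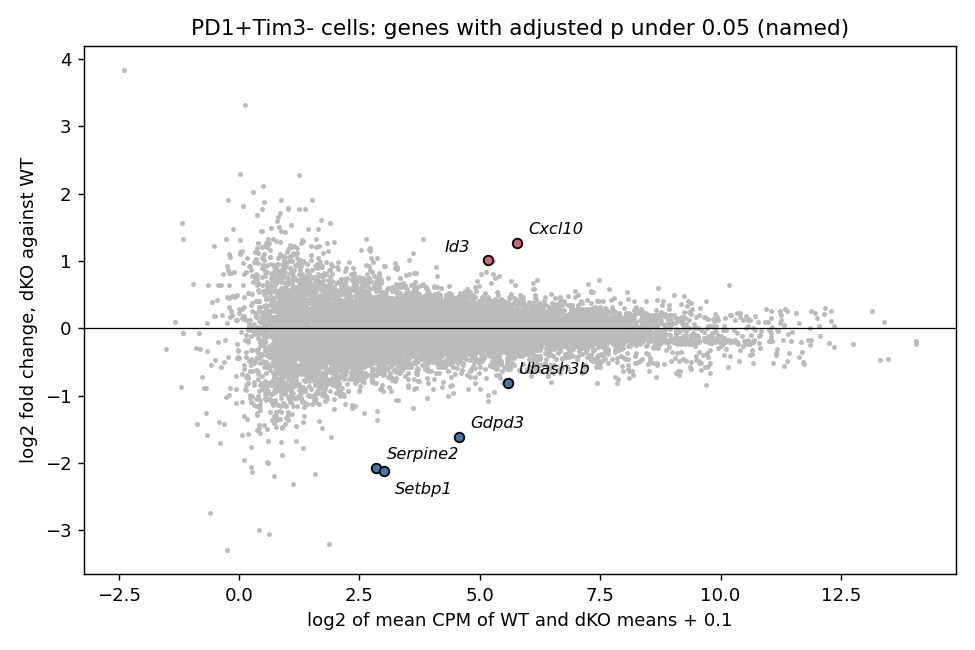
Each point is a tested gene, with the log2 of its mean CPM in the 4 PD1+Tim3- libraries on the horizontal axis and the log2 fold change of dKO against WT on the vertical axis. The 6 genes past an adjusted p of 0.05 are coloured and named, and lie between log2 fold changes of -2.12 and 1.27 while the median gene lies at -0.01.

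Cxcl10 encodes an interferon-induced chemokine that draws T cells through the receptor CXCR3. Its level was 33.4 and 30.9 CPM in WT (235 and 149 counts) and 78.9 and 75.6 CPM in dKO (436 and 144 counts). Group means were 32.2 ± 1.78 and 77.2 ± 2.35 CPM (SD, n = 2), and the gene rose 2.40-fold, or by 1.27 ± 0.16 (SE) on the log2 scale (adjusted p = 0.0201 in edgeR). In PD1+Tim3+ cells it was higher already in WT, at 80.4 and 79.2 CPM, with 116 and 83.3 CPM in dKO. There its log2 fold change was 0.32 (adjusted p = 0.381). The difference between those effects, 0.94 ± 0.21, had an unadjusted p of 8.56e-04 and an adjusted p of 0.202 in edgeR, so it did not pass over all genes. Cxcl10 lies at chr5:92346638-92348889 on the minus strand of mm10 (GENCODE M21) and overlaps Art3 on the opposite strand, which makes its count uncertain where strand was not used.

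The 250 bases before the Cxcl10 start site are shown because it was 1 of the 2 genes that rose and its window holds 3 of the motifs searched. The window is chr5:92348890-92349139, minus strand, from RefSeq on GRCm38.p6, and capitals mark the motif matches, written 5′ to 3′:
Cxcl10: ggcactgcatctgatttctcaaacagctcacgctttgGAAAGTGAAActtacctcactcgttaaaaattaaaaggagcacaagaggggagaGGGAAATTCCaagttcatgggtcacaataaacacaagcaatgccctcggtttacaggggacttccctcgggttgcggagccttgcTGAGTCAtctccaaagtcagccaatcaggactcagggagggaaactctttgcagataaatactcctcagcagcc
Reading from the 5′ end, the capitals are an interferon-stimulated response element (GAAA, any 2 bases, GAAA) at -213 from the start, a kappaB motif (GGGA, any 2 bases, TTCC) at -159 and an AP-1 motif (TGANTCA) at -74. Both strands were searched, and the matches do not overlap. Over 32851 promoter windows of the same length, 2.98% held the first motif, 1.21% the second and 6.75% the third. The NR4A monomer motif AAAGGTCA, found in 1.34% of windows, and the EGR motif GCGTGGGCG, found in 0.536%, were searched too and are not in this window. None of the 5 motifs matched in the windows of Id3, Gdpd3, Serpine2 or Ubash3b, for which 5 windows were read. No window of Setbp1 was read. A match is a run of letters, and no binding was measured.

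Id3 encodes an inhibitor of E-protein transcription factors that is carried by memory and stem-like CD8 T cells. Its levels were 23.9 and 23.6 CPM in WT and 49.9 and 45.7 CPM in dKO, from 168 and 114 counts and from 276 and 87 counts. Id3 rose 2.03-fold (log2 fold change 1.02 ± 0.13, adjusted p = 0.0201 in edgeR). In PD1+Tim3+ cells Id3 was lower in both genotypes, at 10.9 and 12.1 CPM in WT and 16.6 and 17.9 CPM in dKO, a log2 fold change of 0.56 with an adjusted p of 0.134. Id3 lies at chr4:136143497-136145755 on the plus strand.

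Serpine2 encodes a secreted inhibitor of serine proteases. It was at 12.8 and 9.74 CPM in WT and at 2.53 and 3.15 CPM in dKO, where the shallow replicate 2 rests on 6 counts. Serpine2 fell 4.22-fold (log2 fold change -2.08 ± 0.26, adjusted p = 0.0201 in edgeR). Its level was higher in PD1+Tim3+ cells, at 55.1 and 59.2 CPM in WT and 23.5 and 22.5 CPM in dKO, and it fell there too (log2 fold change -1.32, adjusted p = 0.00108). Setbp1, which encodes a binding partner of the SET protein, was at 14.1 and 11.6 CPM in WT and 2.71 and 3.67 CPM in dKO. It fell 4.33-fold (log2 fold change -2.12 ± 0.27, adjusted p = 0.0201), and in PD1+Tim3+ cells by 1.54 on the log2 scale (adjusted p = 0.00943). Serpine2 lies at chr1:79794197-79861180, minus strand.

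Gdpd3, a lysophospholipase D gene, was at 32.6 and 40.0 CPM in WT and at 12.5 and 9.97 CPM in dKO. It fell 3.07-fold (log2 fold change -1.62 ± 0.18, adjusted p = 0.0201 in edgeR), and also fell in PD1+Tim3+ cells, from 30.6 and 27.7 CPM to 13.8 and 16.4 CPM (log2 fold change -0.94, adjusted p = 0.0302). It lies at chr7:126766334-126775649, plus strand, and overlaps Gm9967 on the other strand. Ubash3b encodes STS-1, a phosphatase that damps signals of the TCR. It was at 61.3 and 60.5 CPM in WT and at 34.9 and 34.1 CPM in dKO, and fell 1.76-fold (log2 fold change -0.81 ± 0.11, adjusted p = 0.0267). In PD1+Tim3+ cells its log2 fold change was -0.45 with an adjusted p of 0.0814. Ubash3b lies at chr9:41011098-41161697 on the minus strand and overlaps the non-coding genes Gm35657 and Gm48611. The genotypes did not overlap for any of the 6 genes in PD1+Tim3- cells, where the calls were made. Of all genes tested, 20.3% lay apart upward and 21% downward.

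**Figure D2:**
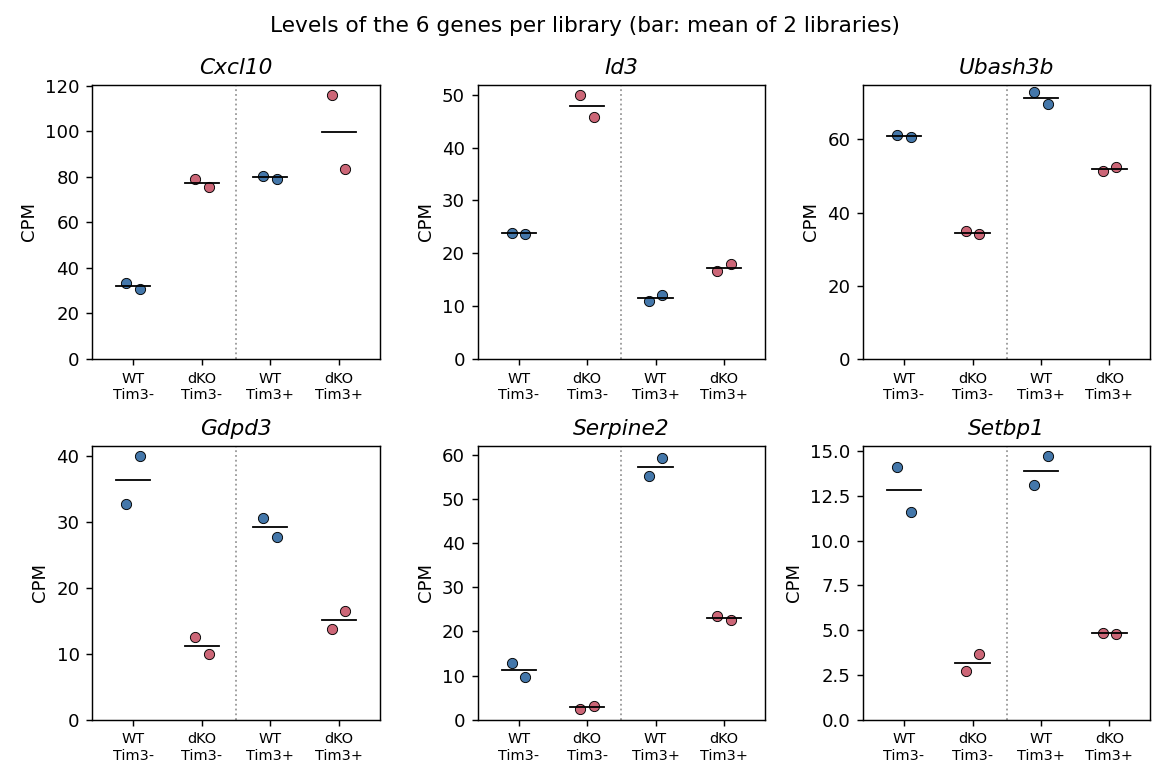
Levels in CPM of the 6 genes in each PD1+Tim3- and PD1+Tim3+ library of both genotypes, 1 point per library and a bar at the mean of 2. In PD1+Tim3- cells both dKO points lie above both WT points for Cxcl10 and Id3 and below them for the other 4 genes.

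The 6 calls changed with single libraries. Fitted alone, the 4 PD1+Tim3- libraries gave 5 calls, of which Cxcl10, Id3, Setbp1 and Gdpd3 were shared. Left out 1 at a time, WT replicate 2, dKO replicate 1 or dKO replicate 2 of PD1+Tim3- cells left no gene past the threshold in edgeR, and without WT replicate 1 only Gdpd3 passed. Without dKO replicate 2 of both populations only Cxcl10 passed. Without WT PD1+Tim3+ replicate 1 or 2 no gene passed either, and without either dKO PD1+Tim3+ library 27 did. In those fits the number at an unadjusted p under 0.05 ran from 592 to 1352. The direction of each of the 6 was the same in every fit that tested it, with log2 fold changes of 1.21 to 1.34 for Cxcl10, 0.95 to 1.07 for Id3, -1.84 to -1.47 for Gdpd3, -2.24 to -1.83 for Serpine2, -2.26 to -1.8 for Setbp1 and -0.83 to -0.79 for Ubash3b.

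The 15 higher and 15 lower genes with the smallest p whose genotypes did not overlap held mostly genes short of the threshold. The highest adjusted p among them was 0.116. The PD1+Tim3+ cells were sequenced as separate libraries, which may come from the same mice. Those libraries also entered the fit that ranked the genes, in which all groups shared the estimate of spread. Calls in PD1+Tim3+ cells are therefore not independent of the ranking. In those cells all 15 higher genes had positive fold changes, where 6665 of the 13073 genes tested did. Of the 15, 5 were called higher, against 0.26% of genes tested. Of these 5, Eif2s3y and Ddx3y are Y-linked, and the others were Tnf, Klf10 and Gm16486. All 15 lower genes were negative there and 12 were called lower, against 0.367%, where 0.627% were called in all. Among the lower genes were Itih5 (17.6 and 16.4 CPM in WT, 7.78 and 6.82 CPM in dKO), for a protein of the inter-alpha-trypsin inhibitor family, and Pde2a (27.0 and 27.2, then 15.6 and 13.6 CPM), for a cyclic nucleotide phosphodiesterase. Ctse, for the protease cathepsin E, was at 45.9 and 47.3 CPM in WT and 19.7 and 30.4 CPM in dKO.

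**Figure D3:**
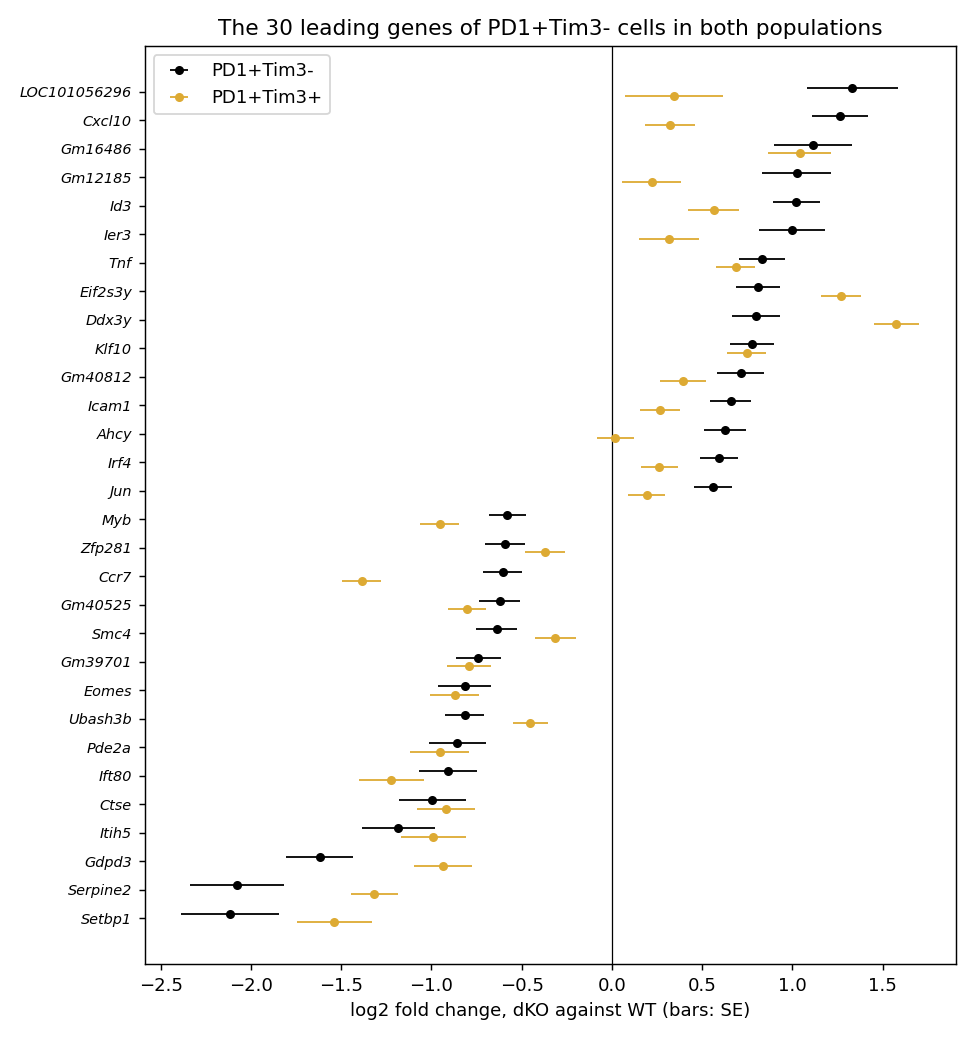
Log2 fold changes of dKO against WT, with SE, for the 30 leading genes of PD1+Tim3- cells in that population (black) and in PD1+Tim3+ cells (yellow). The genes were chosen on the black values, and the yellow values lie on the same side of 0 for all 30.

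The Y-linked genes Eif2s3y and Ddx3y were among the leading higher genes. Eif2s3y had 24.5 and 23.0 CPM in WT and 42.5 and 40.4 CPM in dKO (log2 fold change 0.81, adjusted p = 0.0628 in edgeR). Ddx3y had 31.4 and 24.9 CPM in WT and 49.8 and 48.8 CPM in dKO. Xist, the RNA of the inactive X chromosome, was at 955 and 854 CPM in WT and 690 and 684 CPM in dKO. All 4 libraries thus held both male-specific and female-specific transcripts, in proportions that differed with the genotype label. Whether this bears on any other gene was not tested. The source of the transcripts of both sexes, and the number of donor mice per library, were not tested either.

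Transcription factors that TCR signals induce were mostly on the higher side in dKO, though none passed the threshold. Of 27 tested members of the 28 listed, 23 had a positive log2 fold change, against 49.1% of all genes, and both dKO libraries lay above both WT libraries in 21, against 20.3%. The list's median was 0.28, against -0.01 over all genes. At an unadjusted p under 0.05, 14 were higher and 2 lower, against 4% and 4.27% of all genes. In PD1+Tim3+ cells the median was 0.17.

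Klf10, a zinc finger factor, was at 33.6 and 28.2 CPM in WT and 54.3 and 51.4 CPM in dKO (log2 fold change 0.77 ± 0.12, adjusted p = 0.0746 in edgeR), and in PD1+Tim3+ cells it rose by 0.75 on that scale (adjusted p = 0.0131). Irf4, which scales with TCR signal strength, was at 166 and 160 CPM in WT and 247 and 245 CPM in dKO. Jun, a subunit of AP-1, stood at 105 and 98.3 CPM in WT and at 144 and 157 CPM in dKO. Ier3, an immediate early gene, had 23.9 and 27.6 CPM in WT and 48.1 and 55.6 CPM in dKO. Irf4, Jun and Ier3 had adjusted p-values of 0.109 to 0.11 in edgeR. They are among the leading genes, which were chosen for genotypes that did not overlap. Irf8 ran the other way, at 106 and 117 CPM in WT and 75.8 and 75.6 CPM in dKO (adjusted p = 0.126), and it fell in PD1+Tim3+ cells (log2 fold change -0.94, adjusted p = 0.00239).

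Genes that restrain TCR and MAP kinase signals were split. Of 34 tested, 17 were positive and 17 negative, with a median of 0. Besides Ubash3b, the E3 ligase gene Cblb was at 269 and 268 CPM in WT and 185 and 194 CPM in dKO, and Dusp10, for a phosphatase of the stress-activated kinases JNK and p38, was at 102 and 95.4 CPM in WT and 65.9 and 69.8 CPM in dKO. Dusp6 and Dusp2, whose products act on ERK and are induced by its activity, were higher, at 39.7 and 36.5 against 59.0 and 66.1 CPM and at 307 and 358 against 493 and 512 CPM. None of these 4 passed, with adjusted p-values of 0.126 to 0.227 in edgeR. The 23 tested genes of CD3, CD8 and proximal TCR signalling had a median of 0.14, and none passed.

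NF-kappaB genes had positive fold changes in 16 of 18 cases, with a median of 0.18, and none passed. Nfkbia, which encodes the inhibitor IkappaB-alpha and is itself an NF-kappaB target, was at 488 and 521 CPM in WT and 689 and 721 CPM in dKO. Nfkbid was at 133 and 133 CPM in WT and 208 and 175 CPM in dKO. Icam1, an adhesion molecule gene that NF-kappaB switches on, was at 114 and 122 CPM in WT and 184 and 189 CPM in dKO (log2 fold change 0.66, adjusted p = 0.109 in edgeR). The genotypes lay apart upward in 12 of the 18 genes and downward in none, against 20.3% and 21% of all genes.

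Among 12 secreted cytokine genes, 8 were positive, the median was 0.17 and none passed. Tnf stood at 22.7 and 27.4 CPM in WT and at 44.3 and 44.1 CPM in dKO, a log2 fold change of 0.83 ± 0.13 with an adjusted p of 0.0705 in edgeR. Tnf rose in PD1+Tim3+ cells (0.69, adjusted p = 0.0208). Ifng, for interferon gamma, was at 171 and 182 CPM in WT and 212 and 220 CPM in dKO. Of 7 chemokine genes Cxcl10 alone was positive, and the list's median was -0.31. Xcl1, whose product draws cross-presenting dendritic cells, was at 517 and 487 CPM in WT and 354 and 255 CPM in dKO.

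Interferon-induced genes were mostly positive. In the list of interferon-induced GTPases and MHC class I genes 18 of 21 were positive with a median of 0.18, and of the type I interferon response genes 21 of 26 were, with the same median. None passed in either list. Irf1 was at 504 and 511 CPM in WT and 653 and 651 CPM in dKO, and Gbp2, a guanylate-binding protein gene, at 41.2 and 40.0 against 53.0 and 65.1 CPM. Igtp was at 145 and 128 CPM in WT and 173 and 183 CPM in dKO. In PD1+Tim3+ cells the medians of both lists were -0.07 and -0.02. The difference between populations had an unadjusted p under 0.05 on the higher side for 8 of the 21 GTPase and MHC genes, against 4.22% of all genes, among them Igtp (0.68 ± 0.16, adjusted p = 0.219 in edgeR). Of the 26 type I interferon response genes, 4 were higher and 3 lower at that level, against 4.22% and 5.87% of all genes.

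**Figure D4:**
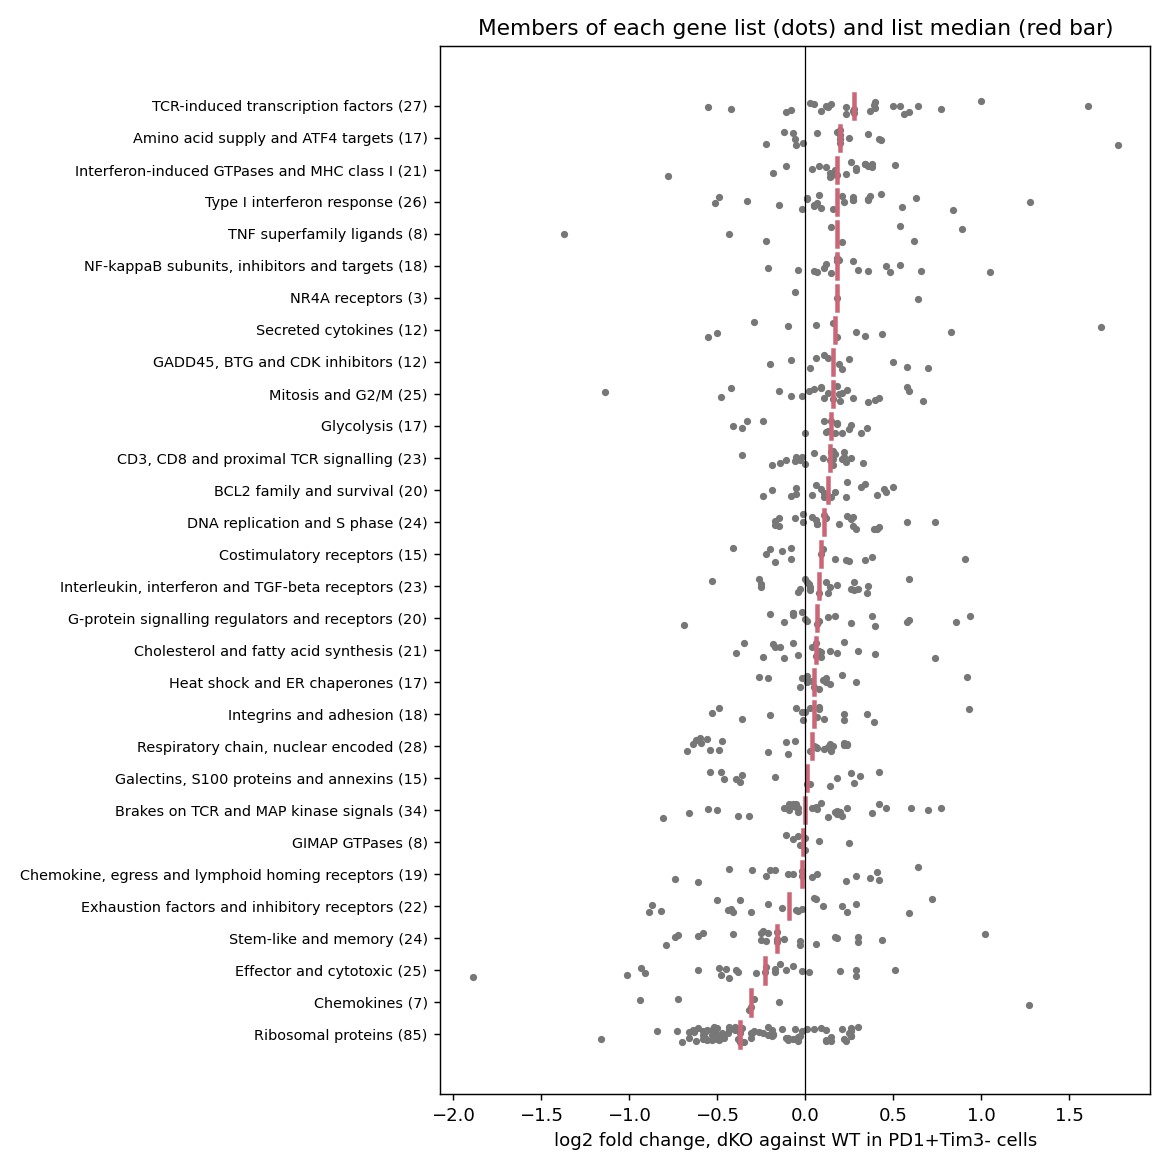
Each dot is a tested gene of a list, placed by its log2 fold change of dKO against WT in PD1+Tim3- cells, with the number of genes in parentheses, and red bars mark the list medians. Medians run from 0.28 for the TCR-induced transcription factors to -0.37 for the ribosomal proteins, and members of nearly every list lie on both sides of 0.

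Most other stem-like and memory genes lay on the side opposite to Id3. Of 24 tested, 7 were positive and 17 negative, where 50.9% of all genes were negative, with a median of -0.16, and Id3 alone passed. Myb, a factor that maintains stem-like exhausted cells, was at 222 and 210 CPM in WT and 146 and 143 CPM in dKO (log2 fold change -0.58 ± 0.10, adjusted p = 0.109 in edgeR). Ccr7, for the lymph node homing receptor, was at 134 and 141 CPM in WT and 93.7 and 85.6 CPM in dKO (-0.61 ± 0.11, adjusted p = 0.109). Both fell in PD1+Tim3+ cells, by 0.95 and by 1.39 on the log2 scale (adjusted p = 0.00239 and 2.85e-04). For Ccr7 the difference between the populations was 0.78 ± 0.15 with an unadjusted p of 3.21e-04 and an adjusted p of 0.2. Ltb, for lymphotoxin beta, ran the other way, at 214 and 242 CPM in WT and 303 and 313 CPM in dKO.

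Exhaustion factors and inhibitory receptors had a median of -0.09, with 14 of 22 negative and none past the threshold. Eomes, a T-box factor of memory and exhausted cells, was at 55.6 and 62.4 CPM in WT and 31.9 and 36.2 CPM in dKO (log2 fold change -0.82 ± 0.15, adjusted p = 0.109 in edgeR), and it fell in PD1+Tim3+ cells (-0.87, adjusted p = 0.0183).

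Effector and cytotoxic genes were mostly on the lower side. Of 25 tested, 20 were negative, the median was -0.23, and none passed. Zeb2, a factor of terminal effector cells, was at 32 and 22.2 CPM in WT and 14.3 and 12.1 CPM in dKO. Tbx21, for the T-box factor T-bet, ran the other way, at 72.5 and 74.0 CPM in WT and 105 and 104 CPM in dKO (log2 fold change 0.51, adjusted p = 0.133), and its effect in PD1+Tim3+ cells was 0.04. Gzmb, for granzyme B, was at 204 and 220 CPM in WT and 151 and 150 CPM in dKO (log2 fold change -0.49, adjusted p = 0.371 in edgeR). Prf1, for perforin, stood at 33.7 and 37.7 CPM in WT and at 25 and 26.2 CPM in dKO, and it fell in PD1+Tim3+ cells (adjusted p = 0.0131). The genotypes lay apart downward in 15 of the 25 genes, against 21% of all genes.

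Ribosomal protein genes had a list median of -0.37 over 85 genes with 68 negative, and none passed. Both dKO libraries lay below both WT libraries in 58 of the 85, against 21% of all genes. Their median deviation from the mean of the 4 libraries was 0.23 and 0.12 in WT, -0.04 in dKO replicate 1 and -0.32 in dKO replicate 2, which is the shallowest library. Without that library the list's median was -0.23. Rpl34 was at 1187 and 937 CPM in WT and at 756 and 430 CPM in dKO. Over genes with transcripts under 700 bases the median log2 fold change was -0.27, against -0.03 over those above 4000 bases, and transcripts under 1000 bases took 11.8% of counts in each WT library, 11% in dKO replicate 1 and 10% in dKO replicate 2. Ribosomal RNA made up 2.37% and 2.36% of WT counts, against 2% and 1.6% in dKO. The part of depth, transcript length and ribosomal RNA in these values was not tested. Some respiratory chain genes, such as Ndufa4, showed the same order, at 184 and 159 CPM in WT and 124 and 87.7 CPM in dKO. The 28 tested genes of that list had a median of 0.04. The longest annotated transcripts of Rpl34 and Ndufa4 have 1232 bases, so neither gene is in the classes under 700 or 1000 bases.

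**Figure D5:**
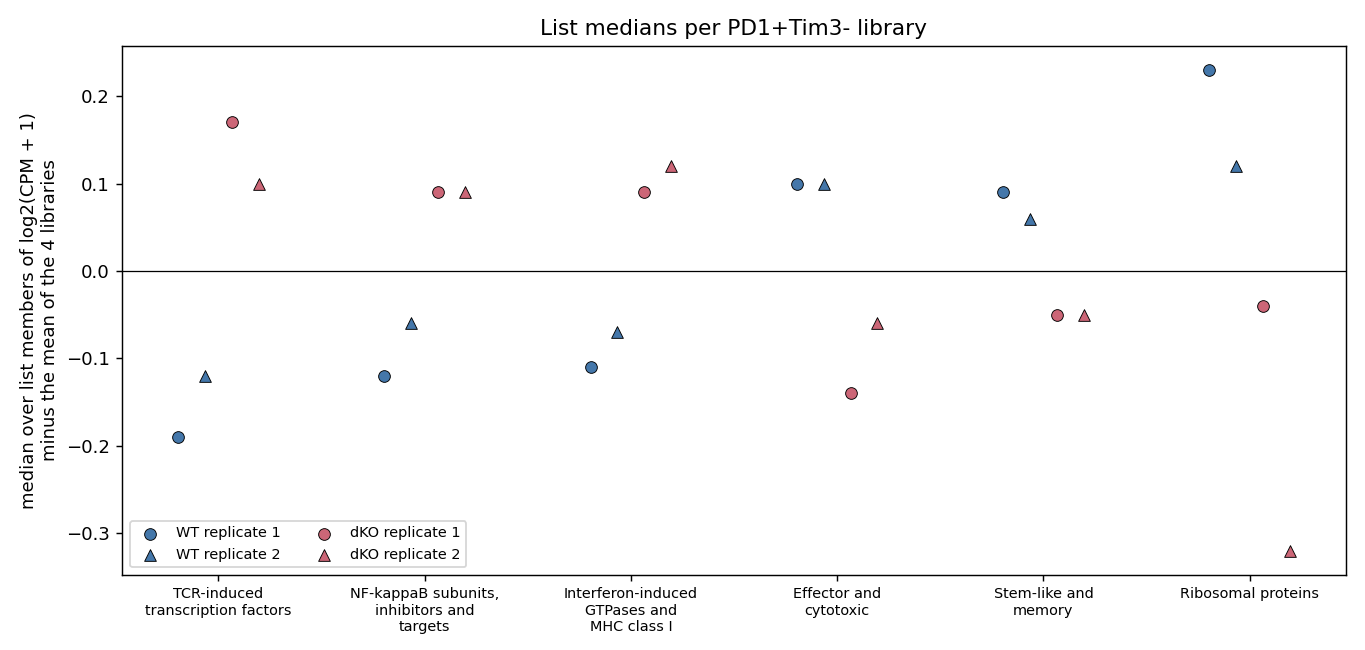
Median over the genes of 6 lists of the log2 level in each PD1+Tim3- library, as the difference from the mean of the 4 libraries. Both dKO libraries lie above both WT libraries for the TCR-induced, NF-kappaB and interferon-induced lists and below them for the other 3, and for the ribosomal proteins dKO replicate 2 stands lowest at -0.32.

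No gene passed the test for a genotype effect that differed between the populations. In edgeR the difference of the effects was called for 0 genes, with 1320 (10.1%) at an unadjusted p under 0.05. Limma-voom also called 0 and DESeq2 109, of which 105 were lower in the PD1+Tim3- contrast and 27 were ribosomal protein genes. Ribosomal proteins had a median of 0.42 in PD1+Tim3+ cells, and 53 of the 85 had an unadjusted p under 0.05 for the difference on the lower side, against 5.87% of all genes. In PD1+Tim3+ cells, too, replicate 2 of the libraries labelled dKO stood apart. Rpl34 was at 308 and 361 CPM in WT, 426 CPM in dKO replicate 1 and 851 CPM in dKO replicate 2. In those 4 libraries transcripts under 1000 bases took 9.31%, 9.12%, 9.93% and 11.6% of counts, and their part in the difference was not tested. Lgals1, for galectin-1, also differed at that level. Its values were 233 and 204 CPM in WT and 182 and 159 CPM in dKO PD1+Tim3- cells, a log2 fold change of -0.36, and rose in PD1+Tim3+ cells (1.04, adjusted p = 0.0106). Its difference was -1.39 ± 0.20, with an adjusted p of 0.2 in edgeR, and Lgals1, Ndufa4 and Rpl34 were among the genes that DESeq2 called.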

How the data were processed

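The authors deposited whole-number counts per gene symbol in 1 table. The submitters' processing notes name mm10, cutadapt 1.18 and Bowtie2 2.2.5 without their roles, and the counting tool, annotation and strand setting were not given in the sources used here. An unnamed line of column totals was left out. Groups came from the labels, and per the labels each implanted mouse gave a sample. All 8 libraries entered 1 fit of edgeR 4.0.16 (R 4.3.3, TMM factors, default low-count filter, quasi-likelihood F test) with a mean per group and 4 residual degrees of freedom. A gene was called at an adjusted p (Benjamini-Hochberg) under 0.05. Each SE is the log2 fold change divided by the root of F. On simulated counts of 12844 genes, 62% and 82% of genes lowered or raised by 1 on the log2 scale were recovered, and 12 of 181 calls were false. The changed genes, 50 per effect size, were drawn without those of low level, and the simulated libraries were independent. These rates are therefore not the power of the comparison reported here. The genes described come from the targeted and sort genes, all called genes, 15 leading genes per direction, sex-linked genes and cell type markers. Others are among up to 5 members per list by p and its 3 highest. Not every gene of these sets is named. The 31 lists, and the comparison itself, were chosen with earlier results of these data known. Coordinates are from GENCODE M21 on mm10. Alternatives included DESeq2 1.42.0, limma-voom 3.58.1, other filters and each library left out.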

Additional observations from a re-analysis of the deposited data

How the results depend on the processing

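The number of genes called between genotypes in PD1+Tim3- cells was 6 and moved under several alternatives: 232 without a low-count filter, 56 with robust empirical Bayes, 0 with limma-voom (1013 at an unadjusted p under 0.05), 0 to 27 with 1 library left out, and 1 (Cxcl10) without dKO replicate 2 of both populations. It was 6 with relative-log-expression factors, with DESeq2 (5 shared genes) and without Rn45s and Rn18s, 5 in a fit of the 4 PD1+Tim3- libraries alone (4 shared) and 4 with a stricter filter that no longer tested Serpine2 and Setbp1. With the replicate block no gene was called (0, with 862 at an unadjusted p under 0.05). Deviations of same-numbered WT and dKO PD1+Tim3- libraries had a correlation of -0.06. Between same-numbered PD1+Tim3- and PD1+Tim3+ libraries it was -0.02 in WT and -0.05 in dKO. Whether same-numbered libraries came from the same mice was not tested. The count for the difference between populations, 0 in edgeR, was 331 without a filter, 109 with DESeq2, 4 with robust empirical Bayes and 0 to 309 with 1 library left out, the highest without dKO PD1+Tim3+ replicate 1. The cause of these shifts was not tested. Left out 1 at a time, libraries turned the small log2 fold change of Havcr2 (0.21, range -0.03 to 0.62) and that of Pdcd1 (-0.04, range -0.29 to 0.31, with 0.16 without dKO replicate 1). With 2 libraries per genotype and 1944999 counts in the shallowest library, small changes may have gone undetected.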

Other observations

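Some genes outside the groups above also separated the genotypes of PD1+Tim3- cells without passing the threshold in edgeR. Smc4, for a condensin subunit, was at 354 and 340 CPM in WT and 231 and 214 CPM in the libraries labelled dKO, and its neighbour Ift80, for a protein of cilium transport, was at 47.1 and 36.5 CPM in WT and 22.6 and 22.0 CPM in dKO. They lie head to head, Ift80 at chr3:68892499-69004570 on the minus strand and Smc4 at chr3:69004738-69034623 on the plus strand of mm10. Ahcy, for the hydrolase of S-adenosylhomocysteine, was at 24.6 and 25.1 CPM in WT and 38 and 38.8 CPM in dKO, and its log2 fold change was 0.63 here and 0.02 in PD1+Tim3+ cells (difference 0.61 ± 0.15, unadjusted p = 0.00236, adjusted p = 0.23).

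Cell cycle genes had positive medians in PD1+Tim3- cells, 0.11 over 24 replication genes and 0.16 over 25 mitosis genes, and none passed. Both dKO libraries lay above both WT libraries in 6 replication and 4 mitosis genes, against 20.3% of all genes. At an unadjusted p under 0.05 in edgeR, 5 replication genes were higher and 0 lower, and 0 mitosis genes were higher and 1 lower. Library medians of the mitosis list overlapped, at -0.13 and -0.03 in WT and -0.04 and 0.13 in dKO. Mcm6, a subunit of the replicative helicase, was at 78.2 and 94.9 CPM in WT and 113 and 118 CPM in dKO, while Cenpf, for a kinetochore protein, was at 6.40 and 7.46 CPM in WT and 3.08 and 3.15 CPM in dKO. Of 17 amino acid supply and ATF4 target genes, 11 were positive with a median of 0.2. Trib3 was at 1.14 and 0.829 CPM in WT and 3.44 and 3.67 CPM in dKO, levels of a few counts per library. The 17 glycolysis genes had a median of 0.15 in PD1+Tim3- cells and of -0.25 in PD1+Tim3+ cells. Receptors for costimulation held Tnfrsf4, for OX40, at 9.95 and 14.3 CPM in WT and 23.7 and 19.4 CPM in dKO (adjusted p = 0.236 in edgeR). The stress-induced gene Gadd45b was at 427 and 433 CPM in WT and 595 and 625 CPM in dKO, and rose in PD1+Tim3+ cells by a log2 fold change of 0.73 (adjusted p = 0.0169).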
